A study of Mus musculus with 16 samples.

Results

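The Serpina3 serine protease inhibitor cluster was followed through the hippocampal RNA sequencing of 16 female mice. Its 7 members, Serpina3n, Serpina3m, Serpina3i, Serpina3h, Serpina3g, Serpina3f and Serpina3c, were taken by gene name from the 55335 genes of the raw count table. The genes were selected on their read counts in the vehicle groups, where Serpina3n and some of its neighbours were lower in 3xTg than WT mice, so the values of those groups are a description without a test. The 4 groups held 4 mice each, all 10 months old by their labels. WT-D were mice of the strain labelled B6129SF2/J with vehicle (0.8% DMSO), and WT-S were the same strain with 80 µM of the stearoyl-CoA desaturase inhibitor CAY10566 in that vehicle. 3xTg-D (vehicle) and 3xTg-S (CAY10566) mice were the Alzheimer's disease model 3xTg, whose alleles include transgenes for human APP with the Swedish mutation and human tau with P301L, both driven by a neuron-specific Thy1 promoter. Infusion into the lateral ventricle lasted 28 days in all groups, so the controls had the surgery and the DMSO as well. One protocol text common to the samples names a different inhibitor, ab142089, whereas titles and treatment labels name the Cayman compound, which was taken as the treatment here. The genotypes are separate strains, so effects of the alleles of 3xTg mice and of the strain background cannot be told apart.

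Serpins are suicide substrates. The target protease cuts an exposed reactive centre loop, and the serpin then changes shape and traps the enzyme. The mouse Serpina3 genes are paralogues of human SERPINA3, which encodes alpha-1-antichymotrypsin, an acute-phase plasma protein also found in amyloid plaques. In the brain Serpina3n is secreted chiefly by astrocytes, is among the best known markers of reactive astrocytes, and inhibits granzyme B, cathepsin G and leukocyte elastase.

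The members lie on chromosome 12 within 267.948 kb (chr12:104146382-104414329, GRCm38). All are on the plus strand except Serpina3c, and the table classes Serpina3h as a transcribed pseudogene and lncRNA. Their similarity decides which gene a read can be given to, so a coding stretch of 75 bases is shown, the least alike ungapped window of the alignment (mean identity to Serpina3n 68.8%). It lies in exon 3 of 5 in Serpina3n (chr12:104411152-104411226), Serpina3m (chr12:104391481-104391555), Serpina3g (chr12:104239060-104239134) and Serpina3c (chr12:104149547-104149621, minus strand), and in exon 4 of 6 in Serpina3i (chr12:104266470-104266544) and Serpina3f (chr12:104218231-104218305). Sequences are from Gencode M21 transcripts on GRCm38, 5′ to 3′ along the gene, with capitals at bases that differ from Serpina3n.
Serpina3n: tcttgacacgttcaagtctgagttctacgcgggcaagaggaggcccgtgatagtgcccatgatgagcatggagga
Serpina3m: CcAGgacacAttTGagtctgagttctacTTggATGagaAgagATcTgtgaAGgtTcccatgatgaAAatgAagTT
Serpina3i: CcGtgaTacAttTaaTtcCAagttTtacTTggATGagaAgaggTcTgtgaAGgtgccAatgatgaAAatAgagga
Serpina3g: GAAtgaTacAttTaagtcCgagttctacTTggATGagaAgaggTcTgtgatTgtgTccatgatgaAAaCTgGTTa
Serpina3f: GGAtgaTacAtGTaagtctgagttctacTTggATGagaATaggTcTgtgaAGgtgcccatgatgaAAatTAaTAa
Serpina3c: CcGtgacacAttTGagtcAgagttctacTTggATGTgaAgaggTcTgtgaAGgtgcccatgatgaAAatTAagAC
In this stretch 23 bases differed from Serpina3n in Serpina3m, Serpina3i and Serpina3c, and 24 in Serpina3g and Serpina3f. The most alike window of 75 bases, not shown, had a mean identity of 96%. There 2 bases differed in Serpina3f, 3 in Serpina3i, Serpina3g and Serpina3c, and 4 in Serpina3m. Over the whole aligned coding sequence the identity to Serpina3n was 84.3% to 85.5%, and the closest pair was Serpina3i with Serpina3f at 91.2%. Of the 75-base windows of the Serpina3n transcripts 1.46% occurred unchanged in another gene, and of the Serpina3c windows 0.327%. The share was 5.33% for Serpina3f, 6.62% for Serpina3i, 7.69% for Serpina3g, 9.65% for Serpina3m and 11% for Serpina3h. With 50-base windows it was higher, from 4.25% for Serpina3c and 6.9% for Serpina3n to 19.1% for Serpina3m and 21.9% for Serpina3h. Serpina3m also shares 60 exonic bases on its own strand with the liver gene Serpina3k. By this measure counts of Serpina3m, Serpina3f, Serpina3g, Serpina3i and Serpina3h are less certain than those of Serpina3n. Serpina3c had a smaller shared part than Serpina3n at both window lengths.

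Between 15413385 and 23590149 reads fell on genes per mouse. In addition, 11.7% to 15.4% of all reads in the table mapped to several places and were assigned to no gene. Thy1, part of the transgene constructs, checked the genotype labels. Levels are given as CPM, reads of a gene scaled to a common library size. Thy1 had 1566 to 2141 CPM in 3xTg and 517 to 626 CPM in WT mice. Some mice stood apart on other genes. The choroid plexus transcript Ttr had 638 CPM in WT-D mouse 4 and 246 CPM in WT-S mouse 1, against a median of 3.98 CPM over all 16. WT-D mouse 1 had the highest C4b (158 CPM, median 48.0), and 3xTg-D mouse 2 the highest Gfap (1118 CPM, median 443). Results are given with and without these 4 mice where a call changes.

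Serpina3n was the only well-counted member. It took 94.8% to 97.6% of the reads of the 7 genes in each mouse, and by exon length it had 107 ± 10.6 CPM per kb in WT-D (SD, n = 4) against 2.34 ± 0.606 for Serpina3m, 0.748 ± 0.336 for Serpina3g, 0.302 ± 0.0943 for Serpina3c and 0.255 ± 0.162 for Serpina3f. Serpina3n ranked 1647 by mean CPM of the 16475 genes that passed edgeR's filter on low counts, and Serpina3m ranked 13152. The members that passed were these 5. Serpina3m, Serpina3f and Serpina3c reached 10 reads in WT mice only, so they entered through the group in which they were high. Serpina3h, with 53 reads over 16 mice, and Serpina3i, with 19, were not tested.

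Serpina3n was 4 to 5 times lower in 3xTg than in WT mice under either infusion. In WT-D mice it had 250, 206, 223 and 203 CPM (mice 1 to 4), and in 3xTg-D mice 45.7, 55.6, 48.6 and 45.1 CPM. In WT-S mice it had 202, 217, 202 and 207 CPM, and in 3xTg-S mice 41.3, 49.8, 47.8 and 43.0 CPM. No 3xTg mouse came near any WT mouse, and within each genotype the vehicle and CAY10566 groups overlapped. WT-D mouse 1, high in C4b, was also the highest of all in Serpina3n.

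**Figure D1:**
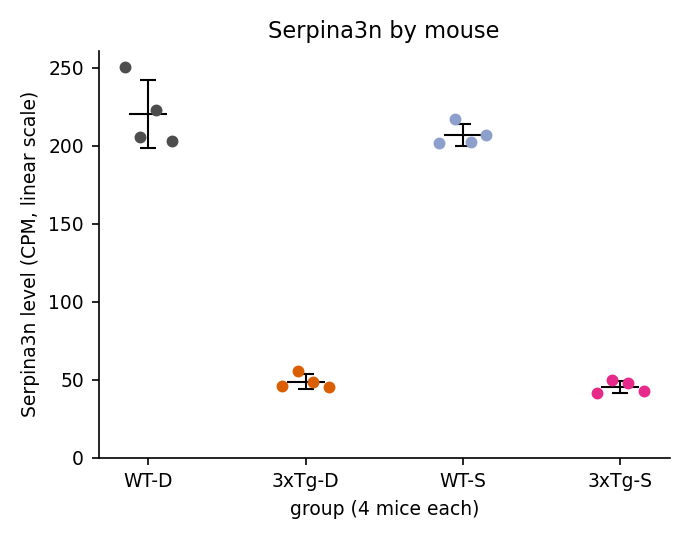
Serpina3n level in each mouse (y axis, CPM on a linear scale from 0) by group (x axis); points are mice, horizontal marks group means and bars SD (n = 4). The 8 WT mice lie between 202 and 250 CPM and the 8 3xTg mice between 41.3 and 55.6 CPM.

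In the vehicle groups, which chose the genes, mean levels were 220 ± 21.9 (WT-D) and 48.8 ± 4.82 (3xTg-D) CPM (SD, n = 4 each), with a fitted log2 fold change of -2.17 (SE 0.091). The CAY10566 groups had mean levels of 207 ± 6.97 (WT-S) and 45.5 ± 4.01 (3xTg-S) CPM. Serpina3n fell by 2.20 on the log2 scale there (SE 0.081, 95% interval -2.38 to -2.02, edgeR quasi-likelihood test, adjusted p = 2.59e-07). None of these 8 mice was in the vehicle comparison. However, the 3xTg-S mice had been compared with WT-D before the genes were chosen, so the test is not fully independent of the choice. In bulk tissue, fewer cells that express the gene and less RNA per cell cannot be told apart.

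Serpina3m, a close paralogue of Serpina3c (89.5% coding identity), showed the widest gap. Its read counts were 115, 93, 50 and 83 in WT-D and 0, 1, 0 and 0 in 3xTg-D mice. They were 74, 79, 94 and 75 in WT-S and 0, 0, 1 and 0 in 3xTg-S mice. Thus 663 reads came from the 8 WT mice and 2 reads from the 8 3xTg mice. Per mapped read, WT-S exceeded 3xTg-S by a ratio of 285, with a 95% interval of 50.8 to 11286 that covers counting error only, and the vehicle groups gave 324 (57.7 to 12828). Fitted log2 fold changes were -7.75 under vehicle and -7.59 under CAY10566, and each hung on a single read: without 3xTg-D mouse 2 the first was -9.33, and without 3xTg-S mouse 3 the second was -9.28. Since the gene entered the fit through WT mice, these values are a description.

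Serpina3f had 27, 8, 8 and 8 reads in WT-D and 1, 3, 1 and 0 in 3xTg-D mice. It had 17, 13, 15 and 9 reads in WT-S and 1, 0, 0 and 0 in 3xTg-S mice. The genotypes did not overlap, and WT-D mouse 1 again was highest. The ratio of WT-S to 3xTg-S was 47.8 (8.22 to 1921, counting error only) and that of WT-D to 3xTg-D was 9.69 (3.89 to 31.1). Fitted log2 fold changes, again a description, were -5.02 under CAY10566 and -3.13 under vehicle. Without 3xTg-S mouse 1, the only one of its group with a read, the first was -6.71, and without 3xTg-D mouse 2 the second was -3.83.

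Serpina3c had 22, 9, 12 and 14 reads in WT-D and 4, 4, 4 and 2 in 3xTg-D mice. It had 14, 11, 16 and 9 reads in WT-S and 4, 5, 6 and 4 in 3xTg-S mice. Unlike Serpina3m and Serpina3f, it was counted in every 3xTg mouse, though always below every WT mouse. The fitted log2 fold change was -1.17 (SE 0.33) in 3xTg-S against WT-S and -1.89 in 3xTg-D against WT-D, a description here too. The first rests on few reads and lay near the calling threshold. It missed that threshold without WT-S mouse 1 (-1.14) or mouse 3 (-1.08), without 3xTg-S mouse 1 (-1.16), mouse 2 (-1.12) or mouse 4 (-1.07), with DESeq2 (-1.19) and without the filter on low counts (-1.18), with log2 fold changes in parentheses. The second was -1.48 without WT-D mice 1 and 4 and 3xTg-D mouse 2, and then missed the threshold as well.

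Serpina3g, known as Spi2A, an intracellular inhibitor of cathepsins in leukocytes, did not share the gap. It had 50, 18, 45 and 21 reads in WT-D and 22, 38, 17 and 36 in 3xTg-D mice. It had 55, 30, 44 and 33 reads in WT-S and 15, 16, 28 and 38 in 3xTg-S mice. The genotypes overlapped under both infusions. The log2 fold change was -0.15 (SE 0.35) under vehicle and -0.53 under CAY10566 (SE 0.32, 95% interval -1.23 to 0.17, edgeR adjusted p = 0.615), so a fall by the size seen in Serpina3n lies outside the interval. Of the untested members, the pseudogene Serpina3h had 4 reads in each WT-D mouse and 2 to 5 in every other mouse. Serpina3i had 0 to 5 reads in WT and 0 to 3 in 3xTg mice. The ratio of WT-S to 3xTg-S was 0.885 for Serpina3h (0.378 to 2.07, counting error only) and 3.54 for Serpina3i (0.706 to 34.2), so a gap of the size seen in Serpina3n was not detectable in Serpina3i at this depth.

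**Figure D2:**
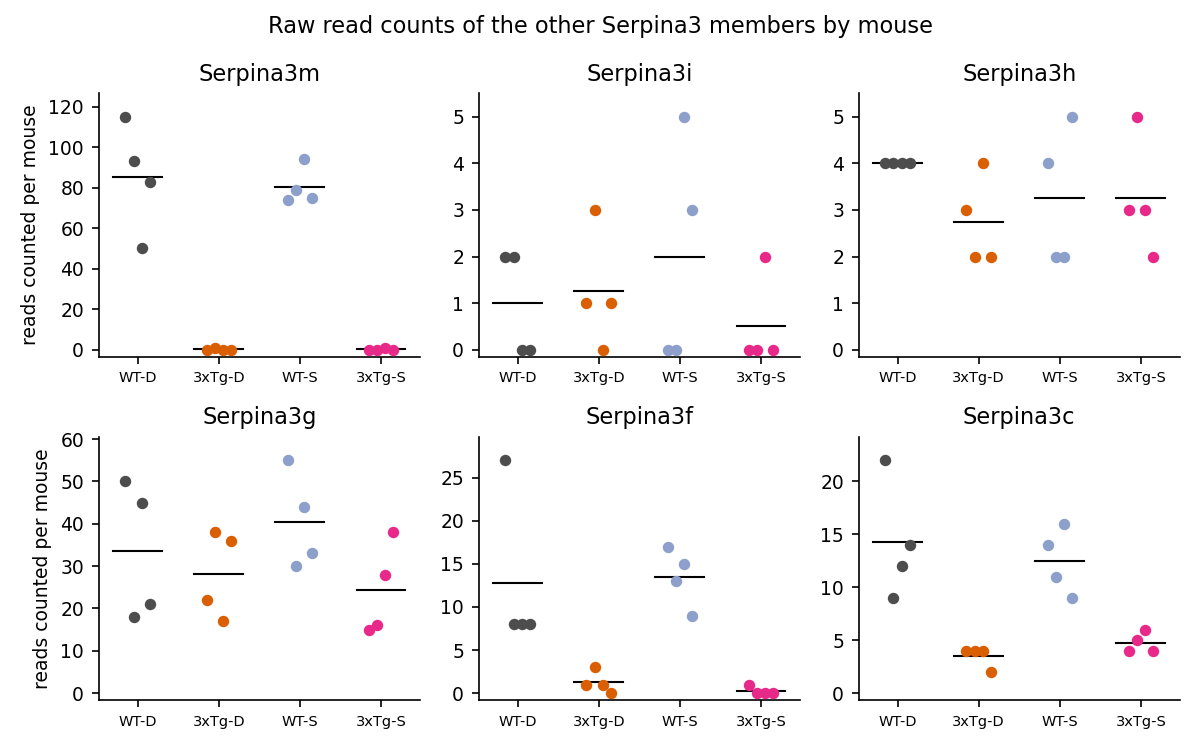
Raw reads per mouse (y axis, linear, a separate scale in each panel) of the 6 other members by group (x axis); points are mice and lines group means. Serpina3m has 50 to 115 reads in WT and 0 or 1 in 3xTg mice, Serpina3f and Serpina3c also separate by genotype, and Serpina3g, Serpina3h and Serpina3i overlap.

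In all, 4 of the 5 tested members were called lower in 3xTg-S than WT-S by the study's threshold (unadjusted p not above 0.01), beside 2.47% of all 16475 genes lower and 4.26% either way. Of these 4, Serpina3m, Serpina3f and Serpina3c entered the fit through WT mice, so nothing is read from the count. It was 3 wherever Serpina3c missed the threshold. Serpina3n and Serpina3g did not depend on that filter. Of all genes 1.4% passed an adjusted p of 0.05, as Serpina3n did. The median log2 fold change was -2.20 over the 5 members and 0.0019 over all genes. The member median is the value of Serpina3n itself. It is a description too, as Serpina3m, Serpina3f and Serpina3c entered through WT mice. In the vehicle comparison, from which the genes were taken, 4 of 5 met the threshold, or 3 without WT-D mice 1 and 4 and 3xTg-D mouse 2, beside 2.47% of all genes lower and 4.91% either way. In Serpina3n, Serpina3m, Serpina3f and Serpina3c every 3xTg mouse lay below every WT mouse of the same infusion, as in 3.78% of all genes under vehicle and 3.53% under CAY10566.

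CAY10566 did not detectably move the members. In 3xTg mice 0 of 5 were called against vehicle (0.904% of all genes), with DESeq2 likewise 0, and 0 had an unadjusted p under 0.05. The Serpina3n log2 fold change was -0.10 (SE 0.089, 95% interval -0.30 to 0.096, edgeR adjusted p = 0.760). In WT mice 0 of 5 were called by edgeR or DESeq2, 0 had an unadjusted p under 0.05, and 0.188% of all genes were called (31 genes, or 115 with the replicate numbers as blocks). Serpina3n gave -0.092 there (SE 0.074, 95% interval -0.26 to 0.073, edgeR adjusted p = 1.00). The genotype gap in Serpina3n under CAY10566 differed from that under vehicle by -0.0086 on the log2 scale (SE 0.12, 95% interval -0.25 to 0.24, edgeR interaction, adjusted p = 0.988). For the interaction 0 of 5 members were called by either tool, 0 had an unadjusted p under 0.05, and 0.595% of all genes were called. These intervals leave room for treatment effects on Serpina3n of up to 0.30 on the log2 scale, well under the genotype gap. For the low-count members they are wide: in 3xTg mice the interval was -3.05 to 3.30 for Serpina3m, -4.36 to 0.92 for Serpina3f, -0.32 to 1.52 for Serpina3c and -0.81 to 0.75 for Serpina3g.

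**Figure D3:**
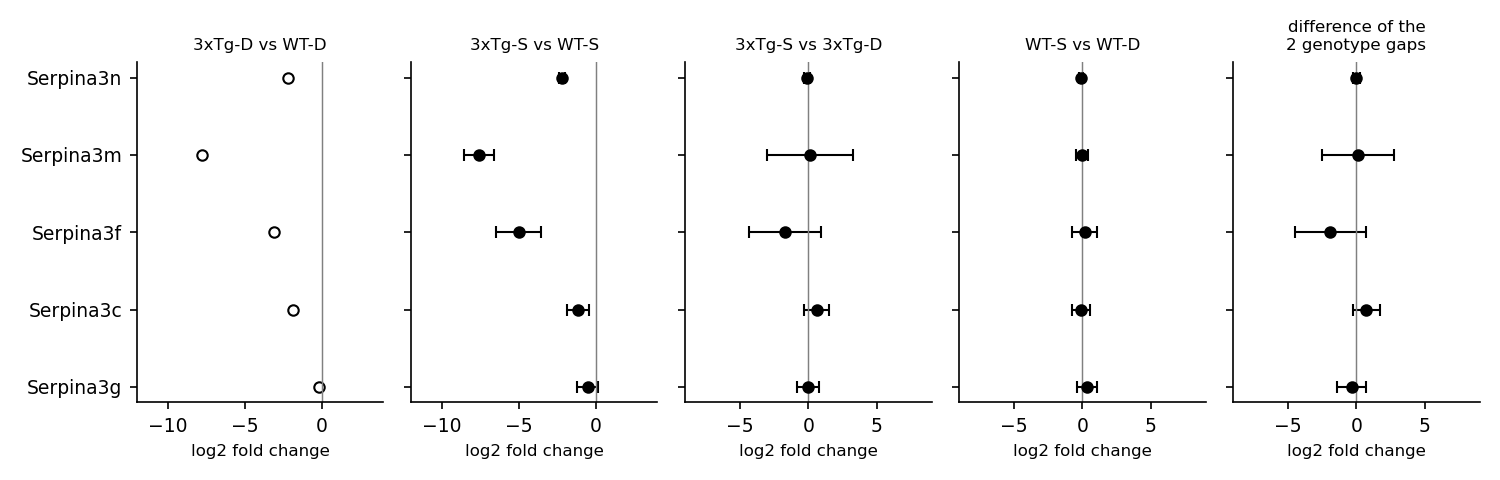
Fitted log2 fold change (x axis) of the 5 tested members (y axis) in each comparison; bars are 95% intervals, left out (open circles) for the vehicle genotype comparison that chose the genes. Serpina3n, Serpina3m, Serpina3f and Serpina3c lie below 0 in both genotype comparisons, and all treatment and interaction intervals include 0. Fitted values of Serpina3m and Serpina3f rest on 0 to 3 reads per 3xTg mouse and depend on the fit.

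The rest of the chromosome 12 serpin cluster was nearly silent. Of 21 other clade A serpins there, 11 had no read in any mouse and 4 had 1 to 9 reads over all mice. The 3 with the most reads were Serpina3e-ps, Serpina1b and Serpina9. The pseudogene Serpina3e-ps had 64 reads, of which 45 came from WT-S mouse 1, the mouse with high Ttr. Serpina1b, an alpha-1-antitrypsin gene of liver, had 14 and 9 reads in the WT groups (vehicle, then CAY10566) against 2 and 0 in the 3xTg groups. Serpina9 had 7 and 2 reads against 2 and 6. Serpina3k, the gene that shares exonic bases with Serpina3m, had 6 reads in WT-D, 5 in WT-S and 0 in both 3xTg groups.

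No tested gene around the cluster fell as far as Serpina3n. Within 1 Mb of the members 18 other genes were tested. In 3xTg-S against WT-S 0 were called by edgeR or DESeq2, beside 4.26% of all genes by edgeR. With so few genes nothing is read from that count. Log2 fold changes ran from -1.50 to 1.11, with a median of 0.041. The lowest was that of Gm29508, a low-count lncRNA (SE 0.62, edgeR adjusted p = 0.408), the 1 gene with an unadjusted p under 0.05. Under vehicle 1 of the 18 was called, beside 4.91% of all genes, namely Clmn at -0.25 (edgeR adjusted p = 0.197). That call was lost without WT-D mouse 1 (-0.26), mouse 3 (-0.22) or mouse 4 (-0.24) and without 3xTg-D mouse 1 (-0.26), mouse 2 (-0.18) or mouse 4 (-0.25), and without WT-D mice 1 and 4 and 3xTg-D mouse 2 together (-0.18). Of 605 other tested genes on chromosome 12, 1.98% were called under CAY10566 and 0.992% under vehicle.

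**Figure D4:**
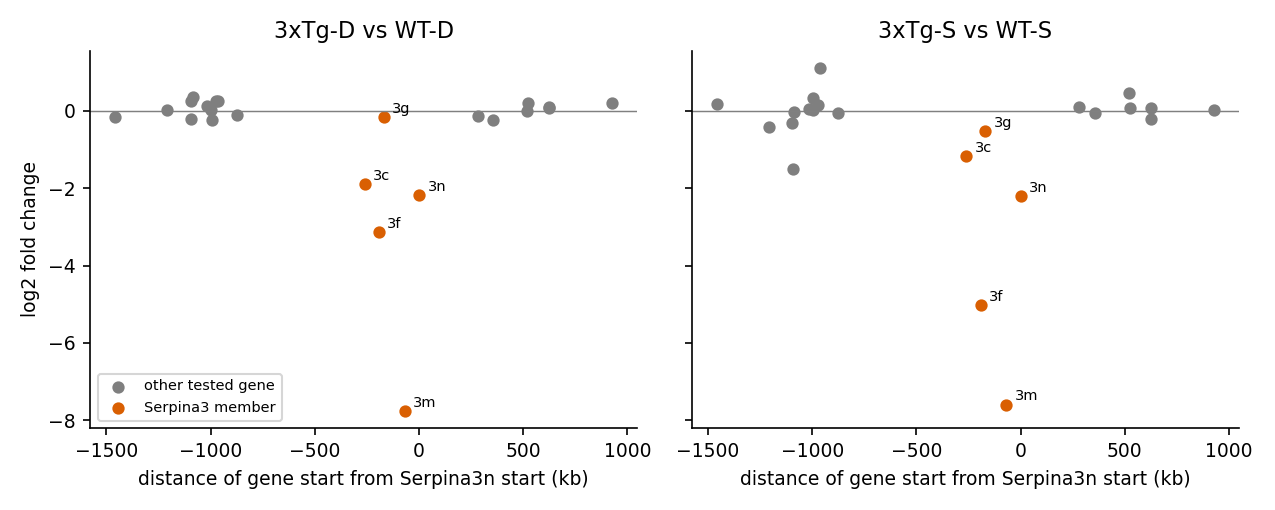
Fitted log2 fold change (y axis) of the tested genes within 1 Mb of the members against the distance of their start from that of Serpina3n in kb (x axis), under vehicle (left) and CAY10566 (right). The 18 other genes (grey) lie between -1.50 and 1.11, and Serpina3n, Serpina3m, Serpina3f and Serpina3c (orange) fall from -1.17 to -7.75.

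The promoters were compared because members differed in whether they were low in 3xTg mice. RefSeq promoters (GRCm38.p6) were found for 5 of 7 members. The 100 bases before the start site are shown for Serpina3n (chr12:104406608-104406707, plus strand), the well-counted gene, for Serpina3c (chr12:104153873-104153972, minus strand) and Serpina3f (chr12:104214444-104214543, plus strand), which were also low, and for Serpina3g (chr12:104236047-104236146, plus strand), which was not. Capitals mark a match to the glucocorticoid response element, an inverted repeat that the receptor binds as a dimer, searched like the other motifs on both strands.
Serpina3n: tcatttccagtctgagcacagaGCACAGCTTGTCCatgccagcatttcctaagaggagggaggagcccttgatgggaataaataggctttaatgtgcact
Serpina3c: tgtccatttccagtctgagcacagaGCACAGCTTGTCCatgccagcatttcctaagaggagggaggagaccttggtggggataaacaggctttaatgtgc
Serpina3f: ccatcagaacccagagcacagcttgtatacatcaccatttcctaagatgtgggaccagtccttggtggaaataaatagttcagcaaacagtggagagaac
Serpina3g: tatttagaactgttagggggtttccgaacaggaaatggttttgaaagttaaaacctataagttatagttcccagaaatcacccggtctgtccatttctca
Over 250 bases upstream Serpina3c was 92.7% identical to Serpina3n in aligned bases, Serpina3i 79.6%, Serpina3f 71.7% and Serpina3g 61.2%. The response element matched in Serpina3n at -78 to -66 from the start site and in Serpina3c at -75 to -63, and in 0.381% of all 27025 promoters of the table. A STAT motif, TTCNNNGAA, matched in Serpina3i, Serpina3g and Serpina3f and in 7.18% of all promoters. It began at -102 in Serpina3i and -121 in Serpina3f but at -33 in Serpina3g. Motifs for NF-kappaB (45.4%) and C/EBP (TTNNGNAA, 36.9%) were common, and some matches of the first overlapped each other. The C/EBP motif matched in all 5 and the NF-kappaB motif in all but Serpina3c. The Serpina3g window ended at 104236146, upstream of the gene's start in the count table (104236245), whereas the other windows ended close to theirs. The bases between were not searched. The Serpina3g identity and its lack of a response element therefore may compare different stretches, and nothing is read from them. A match is a description of letters, not of binding.

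Genes upstream and downstream of the serpins were counted next, from lists chosen with earlier results known. Of all genes 4.26% were called in 3xTg-S against WT-S, so the counts of these short lists are a description only. Of 21 tested regulators of acute-phase transcription, 0 were called in 3xTg-S against WT-S by edgeR or DESeq2 (1 at an unadjusted p under 0.05), and their median log2 fold change was 0.065. The gene under 0.05 was Jak2, at 0.21 (SE 0.0875). The IL-6 family receptor chain Il6st gave 0.065, the signal transducer Stat3 0.013 (SE 0.087), the acute-phase factor Cebpd -0.30 (SE 0.19) and the glucocorticoid receptor Nr3c1 -0.041 (SE 0.085). Of 6 tested proteases (Ctsl, Klk6, Klk8, Plat, Plau and Mmp9), 0 were called by edgeR or DESeq2 (1 at an unadjusted p under 0.05). The hippocampal kallikrein Klk8 gave -0.48 (SE 0.17, adjusted p = 0.303), and the lysosomal cathepsin Ctsl -0.19 (SE 0.10). The Serpina3n targets named at the start were not among the tested genes. Elane, leukocyte elastase, had no read in any mouse. Gzmb (granzyme B) and Ctsg (cathepsin G) did not pass the filter on low counts. Of 13 tested serpins of other clades 1 was called, Serpinb9, an intracellular inhibitor of granzyme B, which fell by 0.58 on the log2 scale (SE 0.15, edgeR adjusted p = 0.126). Its call was lost without WT-S mouse 1 (-0.52), WT-S mouse 3 (-0.57) or 3xTg-S mouse 3 (-0.53). The main brain serpins Serpini1 (neuroserpin, 0.096, SE 0.10) and Serpine2 (protease nexin-1, -0.038, SE 0.12) were not called.

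Serpina3n is a reactive astrocyte marker, and other such genes were counted beside it. Over all genes 4.26% were called in 3xTg-S against WT-S, so nothing is read from the counts in lists this short. In 3xTg-S against WT-S, 0 of 10 tested pan-reactive genes were called by edgeR or DESeq2 (0 at an unadjusted p under 0.05), 0 of 11 A1 genes by either tool (2 under 0.05) and 1 of 10 A2 genes, Tm4sf1. Of 11 plaque-associated astrocyte genes and 8 disease-associated oligodendrocyte genes edgeR called 0 and 0 (1 and 2 under 0.05), and DESeq2 called 1 and 2. Gfap, the intermediate filament of astrocytes, gave 0.17 (SE 0.14), and C4b, complement component 4, gave 0.64 (SE 0.23, adjusted p = 0.324). Tm4sf1 gave -0.43 (SE 0.13, edgeR adjusted p = 0.203), and its call was lost without WT-S mouse 1 (-0.33) or mouse 3 (-0.42) and without 3xTg-S mouse 1 (-0.47), mouse 3 (-0.38) or mouse 4 (-0.41). Under vehicle 1 of the 10 pan-reactive genes was called, beside 4.91% of all genes. It was Cp, which encodes ceruloplasmin, a copper-carrying acute-phase protein. Its mean level was 27.1 ± 7.10 CPM in the 4 WT-D mice against 16.1 ± 2.88 CPM in the 4 3xTg-D mice (SD). It fell by 0.75 on the log2 scale (SE 0.19, edgeR adjusted p = 0.0919), and the call held with DESeq2 and in each of 8 fits with 1 mouse left out (-0.89 to -0.58). In 3xTg-S against WT-S Cp gave -0.44 (SE 0.24, adjusted p = 0.581). Under vehicle 3 of the 10 pan-reactive genes had an unadjusted p under 0.05, not all in the same direction. Cp and Lcn2 were lower and Gfap was higher. Gfap gave 0.57 (SE 0.25, 713 against 481 CPM). Lcn2 gave -3.46 (SE 1.35), with 14.2 CPM in WT-D mouse 1 against a median of 0.18 over all 16 mice. The list median was -0.044. None of the A1, A2, plaque-associated or disease-associated oligodendrocyte genes was called under vehicle by edgeR or DESeq2 (2, 1, 1 and 0 at an unadjusted p under 0.05).

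In CAY10566-infused against vehicle 3xTg mice, where Serpina3n was not called, 2 of the 8 disease-associated oligodendrocyte genes were. Over all genes 0.904% (149 genes) were called in that comparison. That number depended on the fit, with 68 to 802 genes when 1 mouse was left out and 1133 with the replicate block. Il33, an alarmin cytokine, fell by 0.46 on the log2 scale (SE 0.10, edgeR adjusted p = 0.722), and the call held in each of 8 fits with 1 mouse left out (-0.54 to -0.39). Klk6, an oligodendrocyte protease in both the protease and the oligodendrocyte list, fell by 1.97 on the log2 scale (edgeR adjusted p = 0.722). That call was lost without 3xTg-D mouse 2 (-1.36) or mouse 4 (-1.84) and without 3xTg-S mouse 1 (-1.99), mouse 2 (-1.95), mouse 3 (-2.10) or mouse 4 (-1.88). Of 8 oligodendrocyte markers 3 were called lower there, the myelin genes Cnp (-0.44), Mag (-0.42) and Cldn11 (-0.35), each with an edgeR adjusted p of 0.722, and DESeq2 called 4. The summed markers were 4422 to 6910 CPM in 3xTg-S and 5800 to 6888 CPM in 3xTg-D. The Cnp call held with each mouse left out. That of Mag was lost without 3xTg-D mouse 1 (-0.32) or 3xTg-S mouse 3 (-0.37). That of Cldn11 was lost without 3xTg-D mouse 1 (-0.33), mouse 3 (-0.35) or mouse 4 (-0.32) and without 3xTg-S mouse 1 (-0.32), mouse 3 (-0.33) or mouse 4 (-0.29), and with all 16 mice in one fit (-0.35).

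**Figure D5:**
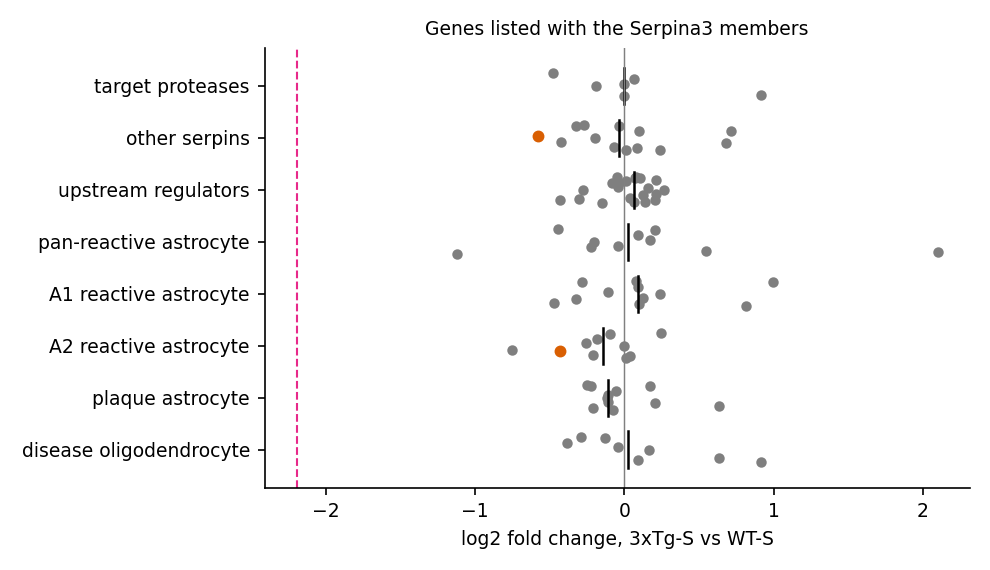
Fitted log2 fold change in 3xTg-S against WT-S (x axis) of the tested genes of 8 lists (y axis); orange points were called, black lines are list medians and the dashed line is Serpina3n at -2.20. Serpinb9 and Tm4sf1 are the called genes, and no listed gene lies near Serpina3n.

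Cell type markers were checked beside the gap. Over all genes edgeR called 4.26% in 3xTg-S against WT-S and 4.91% in 3xTg-D against WT-D. In 3xTg-S against WT-S, 0 of 10 astrocyte, 0 of 8 oligodendrocyte, 0 of 8 microglia, 0 of 8 neuron and 0 of 6 endothelial markers were called by edgeR or DESeq2, and none of them had an unadjusted p under 0.05. Summed astrocyte markers ranged from 5860 to 6930 CPM in WT-S and 5928 to 6889 CPM in 3xTg-S. Blood genes were higher in 3xTg-S (3 of 5 called, summed 31.3 to 127 against 30.2 to 43.6 CPM). The 3 were Hba-a2, Hbb-bt and Alas2, genes of the red cell line, and all 3 calls were lost without WT-S mouse 1 (log2 fold changes 1.21, 1.62 and 1.21) or 3xTg-S mouse 1 (0.95, 1.41 and 1.26), and those of Hbb-bt and Alas2 also without WT-S mouse 2 (1.55 and 1.34), WT-S mouse 3 (1.89 and 1.40) or 3xTg-S mouse 2 (1.42 and 1.03). Choroid plexus genes were not called (0 of 5 by either tool, 3 under 0.05, summed 30.5 to 39.4 against 30.2 to 296 CPM). Under vehicle 1 of the 5 was called, Ttr, lower in 3xTg-D by a log2 fold change of -4.89 (edgeR adjusted p = 0.178), with summed choroid plexus genes at 30.7 to 49.4 CPM against 30.2 to 738 CPM in WT-D. That call was lost without WT-D mouse 4 (-1.66), without any one 3xTg-D mouse (-5.65 to -4.57) and with the replicate block (-2.99). Also under vehicle, 3 of 8 oligodendrocyte markers were higher in 3xTg-D, among them Mbp (0.49) and Mobp (0.39), with summed markers at 5800 to 6888 against 4498 to 5318 CPM. The Mobp call was lost with all 16 mice in one fit (0.39). Of the 10 astrocyte markers edgeR called 0 and DESeq2 1 under vehicle, and 4 had an unadjusted p under 0.05 by edgeR. These were higher in 3xTg-D: Slc1a3 (0.24), Sox9 (0.24), Fgfr3 (0.19) and Slc1a2 (0.18). The astrocyte list median was 0.19, and Slc4a4 was lower (-0.10). Of 11 genes of liver, the main source of plasma serpins, Serpina1a and Serpina1c had no read and only Ttr passed the filter. The part of blood, choroid plexus and oligodendrocytes in the gap was not tested. Leaving out together the 2 mice with high Ttr, WT-D mouse 1 and 3xTg-D mouse 2, a choice made after seeing the data, gave Serpina3n a log2 fold change of -2.21 under vehicle and -2.21 under CAY10566.

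The variation of Serpina3n among mice of the same group was compared with that of all tested genes. The Pearson correlation of log2 CPM deviations from group means (16 mice, a description) was highest for Mapkapk2 (0.897), Lrrc3 (0.873), Ppp4c (0.868), Neurl3 (0.862) and Zfp593 (0.861), and 5% and 95% of all genes lay below -0.604 and 0.583. Among the listed genes Cebpd reached 0.818 and Gfap 0.748, and without WT-D mouse 1 these were 0.815 and 0.684. They were the highest of the regulator and the pan-reactive list. The lowest of these lists were Jak1 (-0.399) and Cp (0.099). The other members were less alike within groups, at 0.384 for Serpina3m, 0.477 for Serpina3f, 0.354 for Serpina3c and 0.171 for Serpina3g, where few reads limit the measure. Over the 16 mice without removing group means, the closest were Gm50350 (0.996), Serpina3m (0.993), Pcdhga11 (0.992), Gm18562 (-0.991) and Gm6916 (0.990). All mice share the library method and the genotype split, so these values are no test.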

How the data were processed

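The authors trimmed the reads of each hippocampal library with Trimmomatic 0.35, aligned them with STAR 2.5.1b to GRCm38 and deposited raw read counts per gene. Libraries were ligated with indexes carrying molecular identifiers. Whether reads were collapsed by them, and the strand setting of the counting, are not given in the sources used here, so overlapping and paralogous genes are uncertain. The intervals of read ratios cover counting error only. Those of log2 fold changes come from the edgeR fit and include the spread between mice. No column of the table was left out. Members and gene lists were chosen with earlier results of these data known.

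From the counts, edgeR 4.0.16 in R 4.3.3 kept 16475 genes (filterByExpr, minimum count 10, minimum total 15), scaled libraries by TMM and compared groups pairwise by its two-sided quasi-likelihood test. Genes were called at p of 0.01 or less, with Benjamini-Hochberg adjusted p beside it. The interaction used all 16 mice. CPM used the TMM-scaled libraries, and log2 CPM a prior count of 2. Ratios of few reads carry exact binomial 95% intervals. Nothing says whether replicates differ in more than the mouse, so p values measure the spread between these mice.

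Alternatives were DESeq2 1.42.0 (likelihood ratio test), median-ratio size factors, no filter, at least 10 counts in every mouse, one fit of all 16 mice, the replicate number as block, each mouse left out, and the adjusted threshold. Same-numbered mice deviated together in all 4 pairs of WT-S and WT-D (correlation 0.114 to 0.34), and in 2 or 3 pairs elsewhere. The fits were tested on simulated counts. Named genes were all members, the 3 best-counted other clade A serpins on chromosome 12, list genes with a small p or a stated role, the 5 genes most like Serpina3n by each measure, and called genes within 1 Mb. Not every list gene with a small p was named. Clmn and genes called in other comparisons than 3xTg-S against WT-S were named after their values were seen. Coding sequences (Gencode M21) were aligned with mafft 7.526, and windows of 75 and 50 bases were matched against all transcripts. Some further loci are not reported here.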

Additional observations from a re-analysis of the deposited data

Results flagged for a closer look

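In groups of 4 mice, 5 of 28 member-by-group sets had one mouse far from the other 3 (Dixon's test at 95%, which chance alone flags in about 1 of 20 sets). Of these, 4 rest on 1 or 2 reads. Serpina3m had 0.042 CPM in 3xTg-D mouse 2 and 0.0642 CPM in 3xTg-S mouse 3, where the other mice had no read. Serpina3i had 0.128 CPM in 3xTg-S mouse 3, and Serpina3f had 0.0654 CPM in 3xTg-S mouse 1, again against no read in the others. The remaining one is Serpina3f in WT-D mouse 1, at 1.14 CPM (27 reads) against 8 reads in each of the other 3 mice.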

How the results depend on the processing

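The Serpina3n genotype gap kept its direction under every alternative run: -2.21 to -2.17 under vehicle and -2.21 to -2.18 under CAY10566 on the log2 scale, and -2.25 to -2.11 and -2.25 to -2.15 with 1 mouse left out. It stayed past the threshold under CAY10566, and no alternative called Serpina3n for treatment or interaction. Requiring at least 10 counts in every mouse leaves Serpina3n and Serpina3g, so 1 member was called in each genotype comparison. With 1 mouse left out, 4 were called under vehicle and 3 to 4 under CAY10566, and 3 in each without the 4 mice with high Ttr, C4b or Gfap. Estimates near 0 changed sign without passing the threshold. The Serpina3n interaction ran from -0.075 to 0.049 with 1 mouse left out. In 3xTg mice the treatment estimate ran from -1.55 to 1.61 for Serpina3m and -0.29 to 0.19 for Serpina3g (0.023 without those 4 mice, a choice made after seeing the data). In WT mice it ran from -0.18 to 0.094 for Serpina3m (0.25 without those mice) and -0.29 to 0.086 for Serpina3c (0.22 without them). The Serpina3m interaction ran from -1.57 to 1.69. The cause was not tested.

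With the replicate number as a block, no member call changed and the Serpina3m treatment estimate in WT mice was 0.013. The block raised the genes called from 702 to 1339 (3xTg-S against WT-S), 149 to 1133 (CAY10566 in 3xTg), 31 to 115 (CAY10566 in WT) and 98 to 624 (interaction). Every mouse correlated best with its own number only in the WT comparison. The adjusted threshold gave 305 genes of 809 under vehicle, 230 under CAY10566 and 0 in the other 3 comparisons. Without the filter 1077, 355, 180 and 208 genes were called from 3xTg-S against WT-S on, and all 16 mice in one fit gave 249 for CAY10566 in 3xTg and 48 in WT. In WT 20 were called with at least 10 counts in every mouse. Without the 4 mice 92 genes were called for CAY10566 in 3xTg and 40 for the interaction. Leaving out 1 mouse gave 68 to 802 genes for CAY10566 in 3xTg (highest without 3xTg-S mouse 2, lowest without 3xTg-S mouse 4), 22 to 516 in WT (highest without WT-S mouse 4) and 56 to 487 for the interaction. Depth limits Serpina3h and Serpina3i, which could not be tested, and the folds of Serpina3m and Serpina3f.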
